A study of Mus musculus with 8 samples.

Results

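The response of wild-type mouse spleen to 7 days of R848 was read from 4 of the series' 8 samples, all titled C57BL/6 wild-type, with 2 Mock and 2 R848 samples from 2 separate experiments. R848 (resiquimod) is a small synthetic agonist of the endosomal receptor TLR7 and was dosed at 1 mg/kg daily, while Mock animals received PBS over the same 7 days. Each sample was RNA of whole spleen pooled from 3 mice, whose age no source used here gives. The other 4 samples come from mice titled TLR7-/- or IFNAR-/- and serve here only for comparison. All 84 pathway genes of a quantitative PCR plate for Toll-like receptor (TLR) signalling were members, with 5 housekeeping genes beside them.

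Toll-like receptors sense microbial products at the cell surface or in endosomes and signal through adaptors with a TIR domain. The adaptor MyD88 recruits IRAK kinases and the ubiquitin ligase TRAF6, which switch on the kinase TAK1 and, through it, NF-kB and the MAP kinases. TLR7 and TLR9 use MyD88 and in dendritic cells of the spleen are known for driving type I interferon, whose receptor in turn raises a set of interferon-inducible genes. Prolonged stimulation is known to engage feedback inhibitors of the same pathway.

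The unit is the delta-Ct, in cycles, for which the averaged PCR threshold cycle (Ct) of *Hprt1*, *Hsp90ab1* and *Gapdh* is subtracted from the Ct of a gene. A lower delta-Ct is a higher transcript level, and a log2 difference subtracts the R848 delta-Ct from the Mock delta-Ct. The deposited wild-type table gives 1 mean per treatment over both experiments, so no value below has an error, differences between treatments carry no test, and the words "higher" and "lower" only describe these means. Ct values above 35 had been set to 35, which placed 7 genes at the highest possible Mock delta-Ct of 13.15. Of the 84 genes, 77 had means off the cap in both columns, 2 have a lower limit on their ratio (written "at least") and 5 have an open direction. A mean off the cap may still hold a capped experiment, which cannot be recognised here. In spleen as a whole, fewer cells of a type and less RNA per cell cannot be told apart.

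The columns did not have equal reach. From the cap, the mean reference Ct was 21.85 in Mock and at most 18.33 in R848, a gap of at least 3.52 cycles at the same stated input of 50 ng of RNA per reaction. The housekeeping genes differed among themselves as well, with log2 differences of 0.28 for *Hprt1*, 0.23 for *Gapdh*, -0.52 for *Hsp90ab1*, 0.63 for *Actb* and 1.88 for *Gusb*. The spread of these 5 genes, from -0.52 to 1.88, is the only measure of technical and reference spread that the wild-type columns hold. It is not a free measure, since *Hprt1*, *Hsp90ab1* and *Gapdh* define the reference and their differences sum to about 0 by construction. Its part in the differences below was not tested.

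At a threshold of 2-fold, 32 of 84 genes (38.1%) had a higher level with R848, 11 (13.1%) had a lower one and 36 lay within it. Among the 36, *Hspa1a* is counted by its lower limit of 1.13-fold, so its ratio may exceed 2-fold. The higher side reached further. There, 17 genes were at least 4-fold higher and 7 at least 8-fold, whereas none of the 79 genes of known direction was 4-fold lower under this scaling. *Cd80* and *Ripk2* passed 4-fold lower with *Hprt1* or *Gapdh* alone or after centring on the median gene, and *Btk*, *Il2* and *Nfkbia* did so too when all 5 housekeeping genes were the reference. Log2 differences of 19 genes exceeded that of *Gusb*, the highest housekeeping gene, and those of 16 genes of known direction lay below that of *Hsp90ab1*, the lowest and itself a reference gene. The median gene had a log2 difference of 0.41. With all 5 housekeeping genes as reference the split was 22 higher and 17 lower, and after centring on the median gene it was 23 and 15. With *Hsp90ab1* alone it was 39 and 5.

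**Figure D1:**
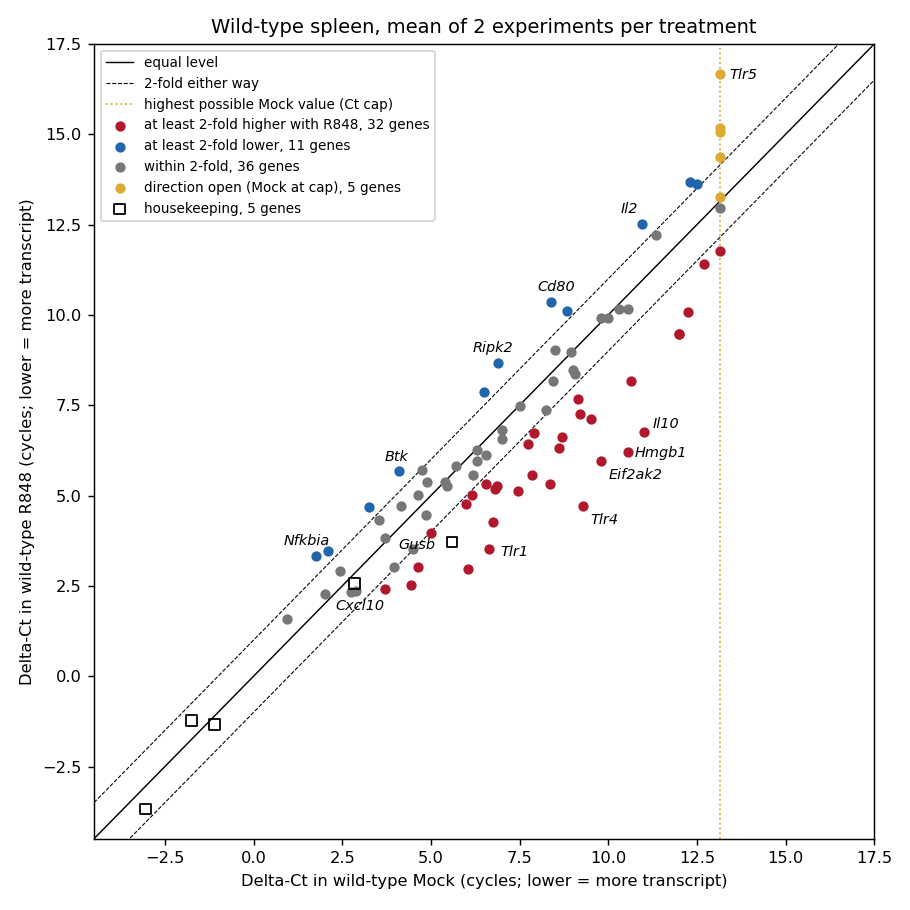
Delta-Ct in cycles in wild-type Mock (x axis) against wild-type R848 (y axis), each point being the mean of 2 experiments for 1 gene; squares are the 5 housekeeping genes, dashed lines mark 2-fold and the dotted line the highest possible Mock value of 13.15. Of the 84 pathway genes, 32 lie below the lower dashed line, *Tlr4* farthest from it, and 11 of known direction lie above the upper one.

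The threshold itself ran through a dense stretch of values. *Tlr9*, with a log2 difference of 1.03, was the last gene inside it on the higher side, and *Map3k7*, encoding the kinase TAK1, was the first outside at 0.98. On the lower side *Il6* stood inside at -1.12 and *Cd86* outside at -0.97. Calls were spread over low and high levels. Among 31 uncapped genes with a Mock delta-Ct above 8, 15 were higher and 5 lower, and among 46 genes at or below 8, 16 were higher and 6 lower.

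Receptors on the cell surface included the gene with the highest ratio of the plate. *Tlr4*, the lipopolysaccharide receptor, went from a delta-Ct of 9.30 in Mock to 4.72 in R848, a 23.9-fold higher level. *Tlr1*, which pairs with TLR2 to bind triacylated lipopeptides, had delta-Ct values of 6.65 and 3.52, or 8.75-fold. *Tlr6*, which pairs with TLR2 for diacylated lipopeptides, had 12.25 and 10.07, or 4.53-fold. Their shared partner *Tlr2* differed little, with 7.00 and 6.57 (log2 difference 0.43). *Tlr5*, the flagellin receptor, was at the cap in Mock and read 16.67 in R848, so its direction is open. Of these 5 receptors 3 were higher (60.0%, against 38.1% of all 84) and none of known direction was lower (13.1% of all 84). The difference from the plate was not tested.

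Endosomal receptors of nucleic acids were higher in 3 of 4 cases (75.0%, against 38.1% of all 84), a difference that was not tested. *Tlr7*, which encodes the target of R848, and *Tlr3*, which encodes the receptor of double-stranded RNA, had the same values on the plate, 12.00 in Mock and 9.47 in R848, or 5.78-fold each. Both Mock values, and that of *Tlr6*, lie close to the cap. If a single Mock experiment was capped in such a mean, the ratio is a lower limit. *Tlr9*, encoding the receptor of CpG DNA, was at 5.00 and 3.97, or 2.04-fold, and fell short of 2-fold under each other scaling except *Hsp90ab1* alone. *Tlr8* was at 8.25 and 7.37, a log2 difference of 0.88. The median log2 difference was 2.18 over the 5 surface receptors and 1.78 over the 4 endosomal ones, against 0.41 over all 84 genes.

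All 4 TIR-domain adaptors on the plate were at least 2-fold higher, against 38.1% of all 84 genes, a difference that was not tested. *Myd88*, the adaptor of nearly every TLR, had a delta-Ct of 10.65 in Mock against 8.17 in R848 (5.58-fold). *Tirap*, which bridges TLR2 and TLR4 to MyD88, had 9.50 and 7.12 (5.21-fold). *Ticam1*, which encodes TRIF, the adaptor of TLR3, had 8.60 and 6.32 (4.86-fold), and *Ticam2*, encoding the TRAM adaptor of TLR4, had 7.75 and 6.42 (2.51-fold). The list's median was 2.33. *Ticam2* was below 2-fold with all 5 housekeeping genes as reference or after centring, and the other 3 adaptors stayed above it under all 6 scalings.

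Downstream of the adaptors, the IRAK and TRAF6 node had 3 of 8 genes higher and none of known direction lower, a share close to that of the whole plate. *Traf6*, the ubiquitin ligase that activates TAK1, had delta-Ct values of 8.35 and 5.32 (8.17-fold). *Tollip*, an inhibitor of TLR and interleukin-1 receptor signalling, had 6.05 and 2.97 (8.46-fold), and *Peli1*, a ubiquitin ligase that acts on IRAK proteins, had 3.70 and 2.42 (2.43-fold). Another 4 genes lay within 2-fold, from *Irak2* at 0.03 to *Map3k7* at 0.98. *Irak1*, encoding a kinase of the MyD88 complex, read 15.17 in R848 against a capped Mock value.

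The MAP kinase and AP-1 branch had 6 of 10 genes higher (60.0%, against 38.1% of all 84), none lower (13.1% of all 84) and a median of 1.38, a difference from the plate that was not tested. *Jun*, an AP-1 subunit, had a delta-Ct of 6.75 in Mock against 4.27 in R848 (5.58-fold), while *Fos*, its usual partner, had 10.00 and 9.92. *Mapk9* (JNK2) was at 7.85 and 5.57 (4.86-fold) and *Mapk8* (JNK1) at 9.20 and 7.27 (3.81-fold). *Map2k3*, a kinase that activates p38, was at 6.80 and 5.17 (3.10-fold), and *Map2k4*, a kinase that activates JNK, at 7.90 and 6.72 (2.27-fold). *Mapk8ip3*, a JNK scaffold, was at 6.85 and 5.27 (2.99-fold). *Elk1*, *Hras1*, *Map3k1* and *Fos* ranged from -0.52 to 0.08. The higher members were kinases of the JNK and p38 branches, a scaffold and *Jun*.

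Of 11 NF-kB genes, 2 were higher (18.2%, against 38.1% of all 84), 1 was lower (9.09%, against 13.1%) and 8 lay within 2-fold, and the difference from the plate was not tested. *Nfkb1*, encoding p105 and p50, had delta-Ct values of 7.45 and 5.12 (5.03-fold). The other subunit genes *Rel* (0.53), *Rela* (0.38) and *Nfkb2* (-0.47) and the kinases *Ikbkb* (0.18) and *Chuk* (0.13) lay within 2-fold, and all 8 genes within it ranged from -0.77 to 0.53. The list had a median of 0.18, below that of the plate. Under the scalings it ranged from -0.32 to 0.70, and *Hsp90ab1* was the only alternative reference that kept it above 0.

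The feedback inhibitors of NF-kB differed in opposite directions. *Tnfaip3*, encoding the ubiquitin-editing inhibitor A20, had a delta-Ct of 8.70 in Mock against 6.62 in R848 (4.23-fold higher). *Nfkbia*, encoding the inhibitor IkB alpha, had 1.75 and 3.32 (2.97-fold lower). Both genes are known targets of NF-kB. The 250 bases before their RefSeq start sites (GRCm38.p6) are shown because both hold matches to the NF-kB motif, written in capitals, whichever way the transcript differed. The window of *Tnfaip3* is chr10:19015411-19015660 on the minus strand and that of *Nfkbia* is chr12:55492648-55492897 on the minus strand.
Tnfaip3: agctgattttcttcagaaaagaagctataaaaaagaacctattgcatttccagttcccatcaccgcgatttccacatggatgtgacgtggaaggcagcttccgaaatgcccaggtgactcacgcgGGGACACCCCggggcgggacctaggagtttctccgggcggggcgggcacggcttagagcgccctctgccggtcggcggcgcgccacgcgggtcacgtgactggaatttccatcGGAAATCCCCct
Nfkbia: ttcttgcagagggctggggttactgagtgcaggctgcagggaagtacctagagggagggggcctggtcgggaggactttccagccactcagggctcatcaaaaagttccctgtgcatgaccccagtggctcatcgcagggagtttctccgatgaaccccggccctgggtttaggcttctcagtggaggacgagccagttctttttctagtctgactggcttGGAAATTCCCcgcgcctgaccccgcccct
In *Tnfaip3* the matches begin 125 and 12 bases before the start site, and in *Nfkbia* the match begins 29 bases before it.

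Interferon-inducible genes were higher in 5 of 6 cases (83.3%, against 38.1% of all 84), with a median of 2.51 against 0.41 over all 84 genes. The list was drawn up with earlier results known, and its difference from the plate was not tested. *Eif2ak2*, encoding the double-stranded RNA kinase PKR, had delta-Ct values of 9.80 and 5.97 (14.2-fold). *Irf1*, an interferon-responsive transcription factor, had 4.45 and 2.52 (3.81-fold). The others, *Tlr3*, *Tlr7* and *Myd88*, are receptor and adaptor genes described above, so this list is not separate evidence. *Cxcl10*, a chemokine for activated T cells and a standard interferon-inducible gene, was at 2.00 in Mock and 2.27 in R848, a log2 difference of -0.27 that turned to 0.25 with *Hsp90ab1* alone as reference.

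Of 4 genes listed for interferon induction, 1 was higher (*Irf1*, described above, or 25.0% against 38.1% of all 84). None of known direction was lower (13.1% of all 84), and the difference from the plate was not tested. *Ifnb1*, the interferon beta gene, read 14.37 in R848 against a capped Mock value, so its direction is open. *Irf3*, a transcription factor of the interferon beta gene, had a log2 difference of -0.87 and *Tbk1*, the kinase that activates IRF3, one of 0.03. *Ifng*, encoding interferon gamma and not on that list, had delta-Ct values of 10.55 and 10.17, within 2-fold.

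Promoters of *Myd88*, *Irf1* and *Cxcl10* are shown to set the gene without a higher level beside genes with one. Capitals mark the interferon-stimulated response element (ISRE) core GAAANNGAAA on either strand, the interferon gamma-activated site (GAS) TTCNNNGAA, which reads the same on both strands, and the NF-kB motif on either strand. The windows are chr9:119340019-119340268 on the minus strand for *Myd88*, chr11:53769764-53770013 on the plus strand for *Irf1* and chr5:92348890-92349139 on the minus strand for *Cxcl10*.
Myd88: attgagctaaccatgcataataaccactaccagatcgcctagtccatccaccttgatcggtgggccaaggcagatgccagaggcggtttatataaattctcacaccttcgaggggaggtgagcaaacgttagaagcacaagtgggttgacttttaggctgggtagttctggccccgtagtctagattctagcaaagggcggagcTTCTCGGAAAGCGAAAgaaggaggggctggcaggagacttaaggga
Irf1: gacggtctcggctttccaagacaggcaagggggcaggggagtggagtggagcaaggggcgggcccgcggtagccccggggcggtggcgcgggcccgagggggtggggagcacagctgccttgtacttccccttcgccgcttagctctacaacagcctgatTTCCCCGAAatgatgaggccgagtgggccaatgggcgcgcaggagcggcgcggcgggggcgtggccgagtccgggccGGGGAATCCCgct
Cxcl10: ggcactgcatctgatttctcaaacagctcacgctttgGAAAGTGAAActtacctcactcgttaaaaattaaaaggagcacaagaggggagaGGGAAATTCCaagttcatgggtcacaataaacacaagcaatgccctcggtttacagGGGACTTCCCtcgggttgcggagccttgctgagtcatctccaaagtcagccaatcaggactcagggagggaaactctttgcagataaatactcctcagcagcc
*Myd88* has an ISRE core beginning 40 bases before its start site, overlapped by a GAS match beginning at 46. *Irf1* has a GAS match at 90 and an NF-kB match at 13. *Cxcl10* has an ISRE core at 213 and NF-kB matches at 159 and 103 bases. *Irf1* and *Tnfaip3* each have 2 start sites in the table, of which 1 is shown. RefSeq windows were found for 71 of the 84 genes. An ISRE core was present in 2 of 26 higher, 0 of 9 lower and 1 of 32 genes within 2-fold, against 3.46% of all genes in the promoter table. GAS matches were present in 6 of 26, 1 of 9 and 5 of 32 (8.13% of all genes), and NF-kB matches in 3 of 26, 2 of 9 and 9 of 32 (4.46% of all genes). A match is a run of letters, and binding was not measured.

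Of 14 cytokines and chemokines, 5 were lower (35.7%, against 13.1% of all 84), 2 were higher (14.3%, against 38.1%), 5 lay within 2-fold and 2 were open. Several smaller lists had a larger share of lower members, and no difference from the plate was tested. *Il10*, encoding an anti-inflammatory cytokine, had a delta-Ct of 11.00 in Mock against 6.77 in R848 (18.8-fold higher), and was the only cytokine to pass 4-fold. *Il1a*, encoding interleukin-1 alpha, had 12.70 and 11.42 (2.43-fold), with a Mock value near the cap. *Il2*, a T-cell growth factor, had 10.95 and 12.52 (2.97-fold lower). *Lta*, encoding lymphotoxin alpha, had 6.50 and 7.87 (2.58-fold lower) and *Il12a*, encoding the p35 chain of interleukin-12, had 8.85 and 10.12 (2.41-fold lower).

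*Csf2*, encoding the growth factor GM-CSF, had 12.30 in Mock and 13.67 in R848 (2.58-fold lower), and *Il6*, encoding interleukin-6, had 12.50 and 13.62 (2.17-fold lower). A mean this close to the cap may hold a capped experiment, which cannot be recognised in the table, and their directions would then be open. The inflammatory cytokines *Tnf* (log2 difference 0.43), *Il1b* (0.33) and *Ccl2* (-0.12) lay within 2-fold. *Csf3*, encoding the neutrophil growth factor G-CSF, read 15.07 in R848 against a capped Mock value. The median of the list was -0.70, and -0.20 without the open genes. With *Hsp90ab1* alone as reference 1 of the 5 lower genes, *Il2*, was still 2-fold lower.

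Co-stimulatory ligands of antigen-presenting cells were lower or near the threshold. *Cd80* had delta-Ct values of 8.40 and 10.37 (3.92-fold lower), the lowest ratio among genes of known direction, and *Cd86* had 4.75 and 5.72 (log2 difference -0.97). Of 5 genes of signalling through death domains and RIP kinases, 2 were higher (40.0%, against 38.1% of all 84) and 2 lower (40.0%, against 13.1%). The difference from the plate was not tested. *Tnfrsf1a*, encoding TNF receptor 1, had 4.65 and 3.02 (3.10-fold higher) and *Casp8*, encoding an apoptotic protease, had 6.00 and 4.77 (2.35-fold higher). *Ripk2*, the kinase of NOD receptors, had 6.90 and 8.67 (3.41-fold lower) and *Tradd*, the adaptor of TNF receptor 1, had 3.25 and 4.67 (2.68-fold lower). *Fadd* lay within 2-fold at 0.28. Over the 6 scalings *Casp8* fell to 0.73 and *Tradd* rose to -0.90, so of these genes *Tnfrsf1a* and *Ripk2* alone stayed at least 2-fold away in all 6.

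Accessory and pattern-recognition molecules had 3 of 9 members higher (33.3%), a share close to the 38.1% of all 84 genes, and none lower. *Hmgb1*, a DNA-binding chromatin protein that alarms immune cells when released, had 10.55 in Mock and 6.22 in R848 (20.1-fold). *Clec4e*, encoding the lectin Mincle, had 9.15 and 7.67 (2.79-fold) and *Cd14*, encoding the lipopolysaccharide co-receptor, had 6.15 and 5.02 (2.19-fold). *Ly96*, encoding the MD-2 protein that TLR4 needs to bind lipopolysaccharide, differed by -0.12. The heat-shock gene *Hspa1a* was at least 1.13-fold higher and *Hspd1* had a log2 difference of -0.62. *Muc13* (-0.02), *Ly86* (-0.47) and *Pglyrp1* (0.53) completed the list.

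The remaining genes were mixed. *Ppara*, a nuclear receptor of fatty acids, was at the cap in Mock and at 11.77 in R848, at least 2.60-fold higher. *Nr2c2*, an orphan nuclear receptor, had 6.55 and 5.32 (2.35-fold higher). *Btk*, a tyrosine kinase that B cells need to mature, had 4.10 and 5.67 (2.97-fold lower), and *Cebpb*, encoding a regulator of myeloid genes, had 2.10 and 3.47 (2.58-fold lower). *Ptgs2*, encoding cyclooxygenase-2, read 13.27 in R848 against a capped Mock value, an open direction. *Il1r1*, *Il6ra* and *Hrb* (now *Agfg1*) ranged from -0.57 to 0.68.

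**Figure D2:**
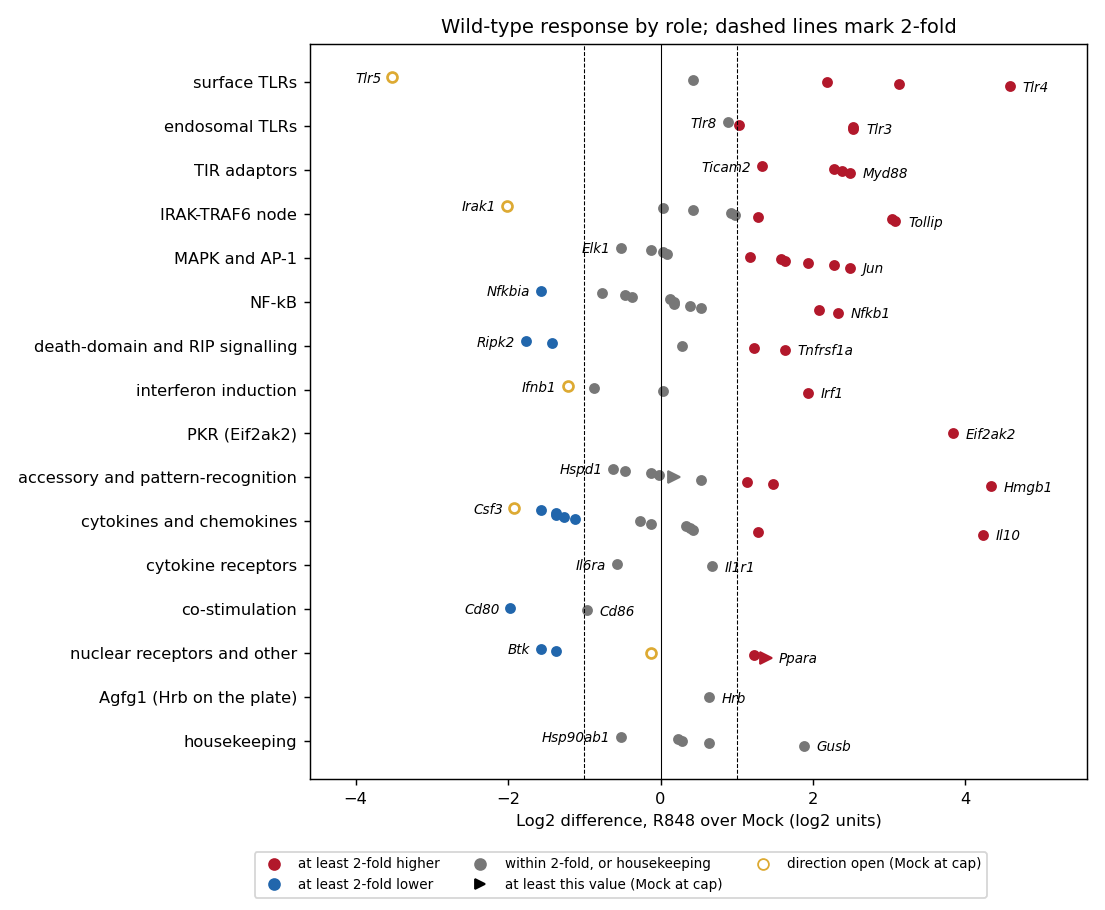
Log2 difference of R848 over Mock (x axis, log2 units) in wild-type spleen for each gene, grouped by role, with triangles for ratios that are at least the value shown and open circles for genes of open direction. All 4 TIR adaptors lie beyond the 2-fold line on the higher side, as do 38.1% of all 84 genes. Most NF-kB genes lie between the lines, and among cytokines *Il10* stands far to the right.

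Cell-type genes of the plate cover only a few of the cells of a spleen. Of 3 genes linked to B cells (*Btk*, *Cd86* and *Ly86*) 1, *Btk*, was lower (33.3%, against 13.1% of all 84) and none higher. Of 3 products of T and NK cells (*Il2*, *Ifng* and *Lta*) 2 were lower (66.7%) and none higher. *Btk* lay at the cap in both columns of each other strain, and *Cd86* was also listed above as a ligand of antigen-presenting cells. The differences of these small lists from the plate were not tested. Of 7 genes of monocytes, macrophages and neutrophils 3 were higher (*Tlr4*, *Clec4e* and *Cd14*), 1 was lower (*Cebpb*) and 1 was open (*Csf3*). These shares of 42.9% and 14.3% are close to the 38.1% and 13.1% of the whole plate. Of 3 stromal or epithelial genes 1 was higher (*Ppara*, a limit, or 33.3% against 38.1% of all 84) and none lower. Delta-Ct values of the B-cell genes ranged from 2.45 to 4.75 in Mock and from 2.92 to 5.72 in R848, and those of the T and NK cell products from 6.50 to 10.95 and from 7.87 to 12.52. *Csf3* and *Ppara* were the markers at the cap in Mock. The plate holds no gene that defines spleen, so the tissue could not be checked. The part of cell composition in the results above was not tested.

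Differences between genes of the same column do not involve the reference genes, which cancel out. *Il10* read 2.15 cycles later than *Il12a* in Mock and 3.35 cycles earlier in R848, a change of their ratio by 45.3-fold. Relative to *Nfkbia*, *Tnfaip3* was 12.6-fold and *Nfkb1* 14.9-fold higher with R848 than with Mock. The level of *Tlr4* was 26.0-fold higher relative to *Ly96*, the gene of its binding partner, and 10.9-fold relative to *Cd14*. Relative to *Tlr2*, *Tlr1* was 6.50-fold and *Tlr6* 3.36-fold higher. The ratio of *Eif2ak2* to *Cxcl10*, both interferon-inducible, was 17.1-fold higher. Other pairs kept nearly the same ratio, among them *Myd88* and *Ticam1* (shift of 0.20 log2 units), *Chuk* and *Ikbkb* (-0.05) and *Mapk8* and *Mapk9* (-0.35). These ratios hold under every choice of reference, but not against the Ct cap or the unknown spread between experiments.

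The choice of reference shifted every gene by the same amount, so each call could be followed through 6 scalings. Of the 32 higher genes, 22 were at least 2-fold higher in all 6, and of the 11 lower genes 5 were at least 2-fold lower in all 6. The 5 were *Cd80*, *Ripk2*, *Nfkbia*, *Btk* and *Il2*. The log2 difference of *Tlr4* ranged from 4.08 to 5.10 over the scalings and that of *Cd80* from -2.47 to -1.45. Beside these 22 of all 84 genes stood 3 of 5 surface receptors, 2 of 4 endosomal receptors and 3 of 4 TIR adaptors. Among MAP kinase and AP-1 genes it was 5 of 10, and among interferon-inducible genes 5 of 6, with members shared between lists. The IRAK and TRAF6 node had 2 of 8 and the NF-kB genes 2 of 11. No difference from the plate was tested. Among cytokines *Il10* alone was higher in all 6 and *Il2* alone was lower.

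**Figure D3:**
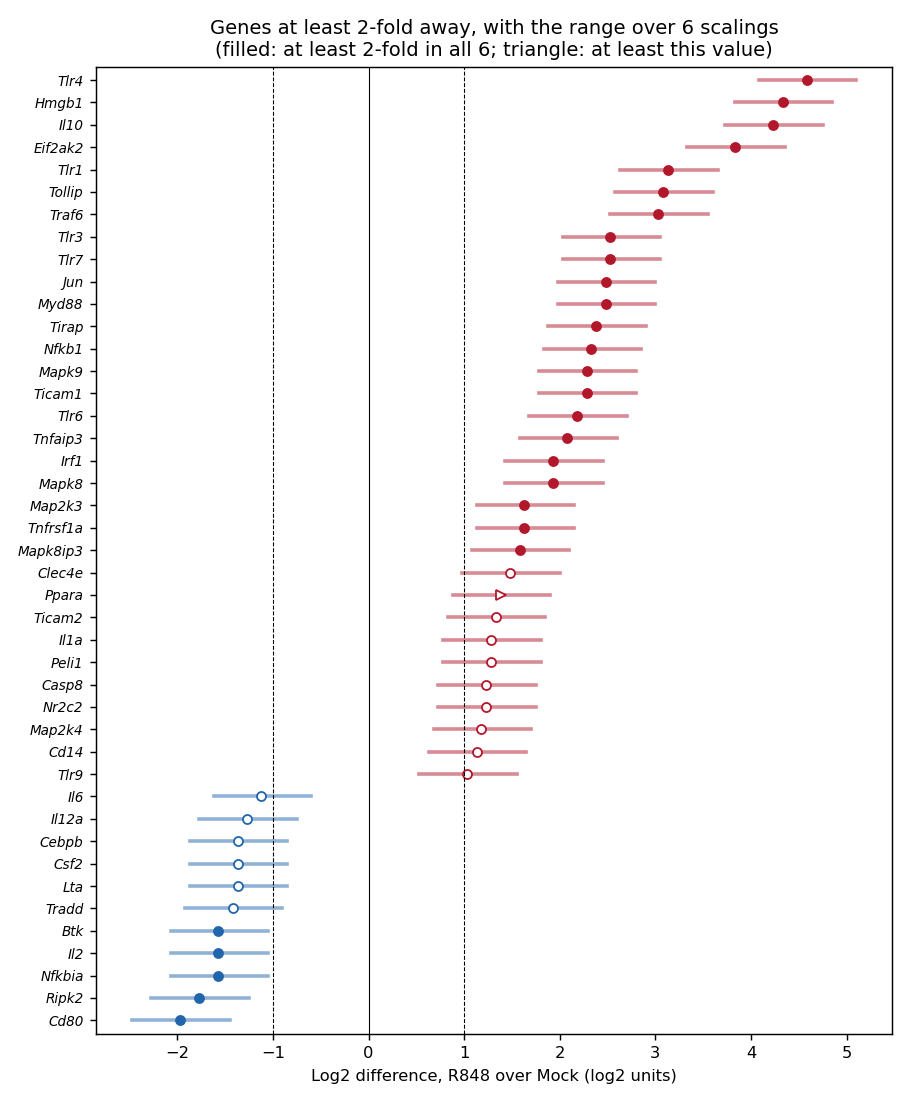
Log2 difference of R848 over Mock (x axis, log2 units) for the 43 wild-type genes at least 2-fold away; bars span 6 scalings, filled points are at least 2-fold away in all 6, and the triangle is a lower limit. The 22 filled red points run from *Tlr4* down to *Mapk8ip3*, and 5 lower genes are filled blue.

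Wild-type values were last set beside those of the TLR7-/- and IFNAR-/- pairs, each a single pooled sample per treatment. *Tlr7* itself read 9.20 and 9.33 in the Mock and R848 columns of the TLR7-/- pair, a higher level than in wild-type Mock. No source used here says where the PCR product lies relative to the deletion, so the reading checks nothing and the strain is called TLR7-labelled. In the TLR7-labelled pair 4.76% of the 84 genes passed 2-fold upwards and 3.57% downwards, and in the IFNAR-labelled pair 53.6% and 2.38%. From the cap, the mean reference Ct was 19.90 in TLR7-labelled Mock and 19.37 in R848, and 22.57 and 20.07 in the IFNAR-labelled pair. In wild type it was 21.85 and at most 18.33. The part of these unequal gaps between Mock and R848 in the counts was not tested. Of the 32 genes higher in wild type, 3 (9.38%) were higher in the TLR7-labelled pair (*Tlr1*, *Map2k3* and *Cd14*). *Cd14* was at the cap in that pair's Mock, so its log2 difference of 9.37 is a lower limit. In that pair the 32 genes had a median log2 difference of 0.37. Their wild-type median of 2.13 was set by the choice of these genes, so that it lies above the median of another pair is no result. In the IFNAR-labelled pair 25 of the 32 (78.1%) were higher, which is 55.6% of that pair's 45 higher genes, and the median of the 32 was 2.20. The 11 genes lower in wild type had a median of -1.42 there, likewise set by their choice, and the same genes had -0.43 with the TLR7 label and 0.30 with the IFNAR label, where *Tradd* alone was also 2-fold lower.

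Wild type and the TLR7-labelled pair differed in their Mock columns too. For the 32 higher genes the median delta-Ct of wild type was 8.13 with Mock and 5.77 with R848, against 6.85 and 6.38 in TLR7-labelled Mock and R848. These genes were chosen for a wild-type Mock level below that of R848. Their wild-type medians and the next count are partly set by that choice. Wild-type Mock had a lower level than TLR7-labelled Mock for 27 of the 32 genes, and for 66 of all 84. *Il10* shows this pattern, with 11.00 and 6.77 in wild type and 6.40 and 6.63 in the TLR7-labelled pair. *Tlr4* does so in part, at 9.30 and 4.72 against 7.00 and 7.43, and its wild-type R848 level was the highest of the 6 columns. *Hmgb1* read 10.55 and 6.22 in wild type, 7.60 and 7.23 in the TLR7-labelled pair and 7.63 and 7.03 in the IFNAR-labelled pair. With TLR7-labelled Mock in place of wild-type Mock, 15 genes passed 2-fold upwards and 26 downwards. Of the 15, 12 were among the 32, which are 38.1% of all 84. Both comparisons use the same wild-type R848 column, so this overlap is partly set by the choice of the 32 and is no result. In that comparison strain and treatment cannot be told apart.

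For the 11 lower genes the wild-type median was a delta-Ct of 6.90 with Mock and 8.67 with R848, against 7.20 and 7.73 in the TLR7-labelled pair. These genes were chosen for a wild-type Mock level above that of R848. Their wild-type medians and the next counts are partly set by that choice. The level in wild-type Mock was below that of TLR7-labelled Mock for 9 of the 11 genes, beside 66 of all 84. In wild-type R848 it was also below for 9 of the 11, and no count over all 84 was made there. *Cd80* read 8.40 and 10.37 in wild type, 7.20 and 7.73 in the TLR7-labelled pair and 8.93 and 8.53 in the IFNAR-labelled pair. Some genes of the plate's first 4 wells differed widely between strains. *Btk* read 4.10 and 5.67 in wild type but lay at the cap in both columns of each other strain, and *Casp8* read 6.00 and 4.77 in wild type but 10.60 and 11.83 in the TLR7-labelled pair.

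**Figure D4:**
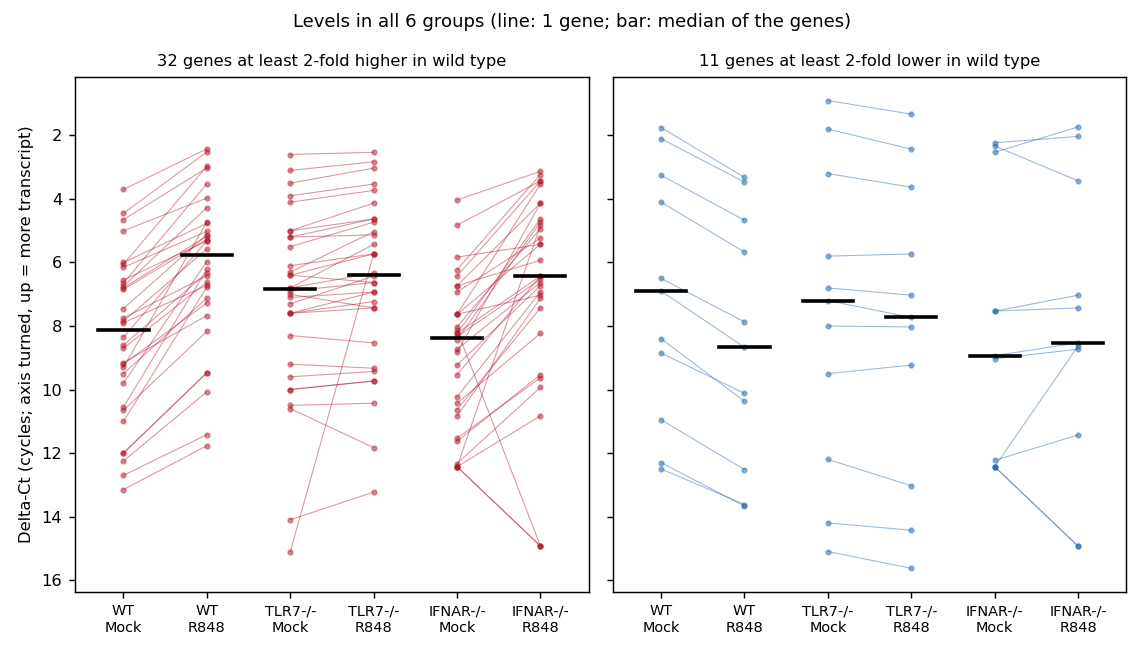
Delta-Ct in cycles (y axis, turned so that up is more transcript) in the 6 groups for the 32 genes higher (left) and the 11 genes lower (right) in wild type; each line joins Mock and R848 of 1 strain for 1 gene, and bars are medians over the genes. The left medians are 8.13 and 5.77 in wild type and 6.85 and 6.38 in the TLR7-labelled pair. In both panels the wild-type medians are partly set by the choice of the genes.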

How the data were processed

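Spleen RNA of 3 mice per sample was pooled, treated against DNA, reverse transcribed with oligo(dT) and read by real-time PCR on a TLR pathway plate, per the labels' protocols. The authors deposited, per the file headers, delta-Ct values on a log2 scale, normalized to 3 reference genes, and the fold (R848 divided by Mock). Wild-type values are means of 2 experiments and Ct values above 35 were set to 35, per the series' design text. Values of the single experiments were not used here. Folds recomputed from delta-Ct matched the authors' deposited fold for 89 of 89 genes, within 2% or 0.01. A further 6 per-sample columns hold the same values without the logarithm and were left out.

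Log2 differences, counts at 2-fold and list medians were computed with Python 3.11.15 and pandas 2.3.3. A gene at the highest Mock delta-Ct is a limit or open. Calling was tested on simulated data. The simulated differences lay away from the 2-fold threshold and no column was a mean of 2 experiments, so those cases were not covered. Alternatives were each reference gene alone, 5 housekeeping genes, median centring, 1.5-fold and 3-fold thresholds, leaving out genes at or within 1 cycle of the cap, and the TLR7-labelled Mock column. A comparison without the first 4 wells was added after seeing the data. Promoters came from RefSeq (GRCm38.p6). Named are all genes at least 2-fold away, all open genes, a fixed set of pathway genes, and extremes of each list. Members, lists and gene pairs were chosen with earlier results of these data known.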

Additional observations from a re-analysis of the deposited data

Results flagged for a closer look

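In 3 genes wild type and another strain were each at least 2-fold away in opposite directions. The difference between strains was not tested, since each strain's pair has a single value per treatment. *Casp8* had a log2 difference of 1.23 in wild type and -1.23 in the TLR7-labelled pair. *Cd14* had 1.13 in wild type and was at least 111-fold lower in the IFNAR-labelled pair, where R848 was at the cap. In the TLR7-labelled pair, where Mock was at the cap, *Cd14* was higher by at least 9.37 log2 units. *Il6* had -1.12 in wild type, close to the cap, and was at least 13.9-fold higher in the IFNAR-labelled pair. *Casp8* and *Cd14* lie in wells A02 and A04, beside *Btk* and *Ccl2*, 4 wells in which levels differ widely between the strains.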

How the results depend on the processing

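No paired analysis was possible because the deposited wild-type table holds only the mean of both experiments, so neither a replicate block nor leaving out an experiment could be run. The count of 32 higher genes ranged from 22 to 39 over the scalings, and was 21 at a 3-fold threshold and 15 with TLR7-labelled Mock as control. The count of 11 lower genes was 5 with *Hsp90ab1* alone, 17 with 5 housekeeping genes, 2 at a 3-fold threshold and 26 with TLR7-labelled Mock as control. Leaving out genes at the cap gave 31 and 11, leaving out genes within 1 cycle of it 29 and 9, and leaving out wells A01 to A04 30 and 10. No gene at least 2-fold away turned its sign under a scaling. List medians that did were those of NF-kB genes and of accessory molecules (each -0.32 to 0.70), death-domain and RIP signalling (-0.22 to 0.80), interferon induction (-0.92 to 0.10) and nuclear receptors and other genes (-0.62 to 0.40), and that of all 84 genes (-0.10 to 0.93). A scaling shifts all genes together, and the cause of the other moves was not tested. The cap limits what Mock could show: levels more than 13.15 cycles below the reference genes were not detectable there.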
